A study of Homo sapiens with 73 samples.

Results

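Receptor tyrosine kinases are described here across 73 RNA libraries of CHLA-9, a line long established from Ewing sarcoma, the bone and soft tissue tumour driven by the fusion of EWSR1 with FLI1. The group held 54 of the 36233 genes in the table, found by the gene symbols of the human receptor tyrosine kinase family. From a single untreated line, 10 lineages were kept in parallel: in R1 to R7 each time point was an exposure to chemotherapy, and R8 to R10 received the solvent DMSO in its place. The drugs alternated between VDC (vincristine, doxorubicin and cyclophosphamide, at odd time points) and EC (etoposide and cyclophosphamide, at even time points), each for 5 days at the concentration with a 70% effect. RNA was taken after the drug had been washed out and the cells had regrown to 80 to 90% confluency, so no library shows cells in drug. There were 49 treated libraries from 7 lineages, 23 DMSO libraries from 3 lineages and 1 library of the untreated parental line, over 10 time points in 5 cycles. Every lineage came from the same line with the same fusion, so the lineages replicate the exposure and not the tumour. In bulk RNA, a larger share of cells that express a gene and more of its RNA per cell cannot be told apart.

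Receptor tyrosine kinases span the cell membrane, bind a ligand outside the cell and phosphorylate tyrosines inside it. The phosphorylated tail recruits adaptors such as GRB2 and SHC1 and passes the signal to the RAS-ERK and PI3K-AKT pathways, and phosphatases, CBL ubiquitin ligases and Sprouty proteins limit it. In Ewing sarcoma, the IGF1 receptor is the best known member, and KIT, PDGFRB and several Eph receptors have also been described there.

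The deposited values were quantile-normalized counts. Sequencing depth cannot be read from them, and the number of libraries limits the precision. Each column had a lowest value between 0 and 0.0513 shared by 13214 to 16107 genes. A member at that value is called listed at the lowest value below, and no fold is given against it. By correlation of each gene's deviation from its mean, 41 of 49 treated libraries and 14 of 23 DMSO libraries lay closest to a library of their own arm. Among treated libraries, R1 (time point 9) and R2 (time point 10) correlated with each other at 0.918, and the late DMSO libraries of R9 (time points 8 and 9) and R10 (time points 9 and 10) also lay closest to one another. These are called the 2 late treated and the 4 late DMSO libraries below, 6 late libraries in all. R8 at time point 1 lay closest to the treated library of R6 at time point 1 (correlation 0.825), R1 at time point 3 to DMSO R9 at time point 2 (0.848), and the first library of R1 to the parental one (0.610). Of the Ewing sarcoma markers, FLI1 (794 to 1351), NR0B1 and PRKCB were high in every library. NKX2-2 was low in many, at 10.3 in the parental library and 4.88 to 272 over all libraries. CD99, the surface marker of these tumours, was listed between 0.00104 and 2.31 in every library. Whether this row counts every copy of the gene was not tested, so the value is not read as absence. Of the 10 tested markers of this list, 0 rose over the time points in either arm (limma, adjusted p under 0.05). In treated lineages 4 fell (22.8% of all genes) and in DMSO lineages 3 (6.14% of all genes). At time point 9, 1 was lower in treated lineages (0.79% of all genes). Of the 8 epithelial markers, EPCAM, CDH1, KRT19, KRT5 and KRT14 stayed under 10 in every library, but KRT18 reached 1164, KRT8 396 and ESRP1 213. These 3 rose in treated lineages together with the receptors described below, by 0.41 ± 0.12, 0.29 ± 0.097 and 0.32 ± 0.058 log2 units per time point (limma, Benjamini-Hochberg adjusted p = 0.0165, 0.0359 and 0.00277), and ESRP1 also rose in DMSO lineages. Their part in the results was not tested. Of the blood markers CD3E and LYZ stayed under 10, while CD79A spanned 51.5 to 1049.9, and of the endothelial markers PECAM1, VWF and ERG stayed under 10, while EGFL7 spanned 329 to 1082. CD79A and EGFL7 were highest in DMSO R9 at time point 9.

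Of the 54 members, 35 had a mean of at least 10 over the 73 libraries, the level taken here as expressed and the filter for testing. In the parental library 31 reached 10, and 25 reached it in every library. Per kilobase of exon, the collagen receptor DDR2 had the highest mean level at 860.5. It was followed by EPHB4 (487), EPHA4 (457) and EPHB3 (366), receptors for membrane-bound ephrins, by the stem cell factor receptor KIT (351) and by the WNT co-receptor PTK7 (329). The IGF1 receptor gene IGF1R stood next in order at 206 per kilobase, followed by EPHA3 (199), ERBB2 (168) and the WNT receptor RYK (162).

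**Figure D1:**
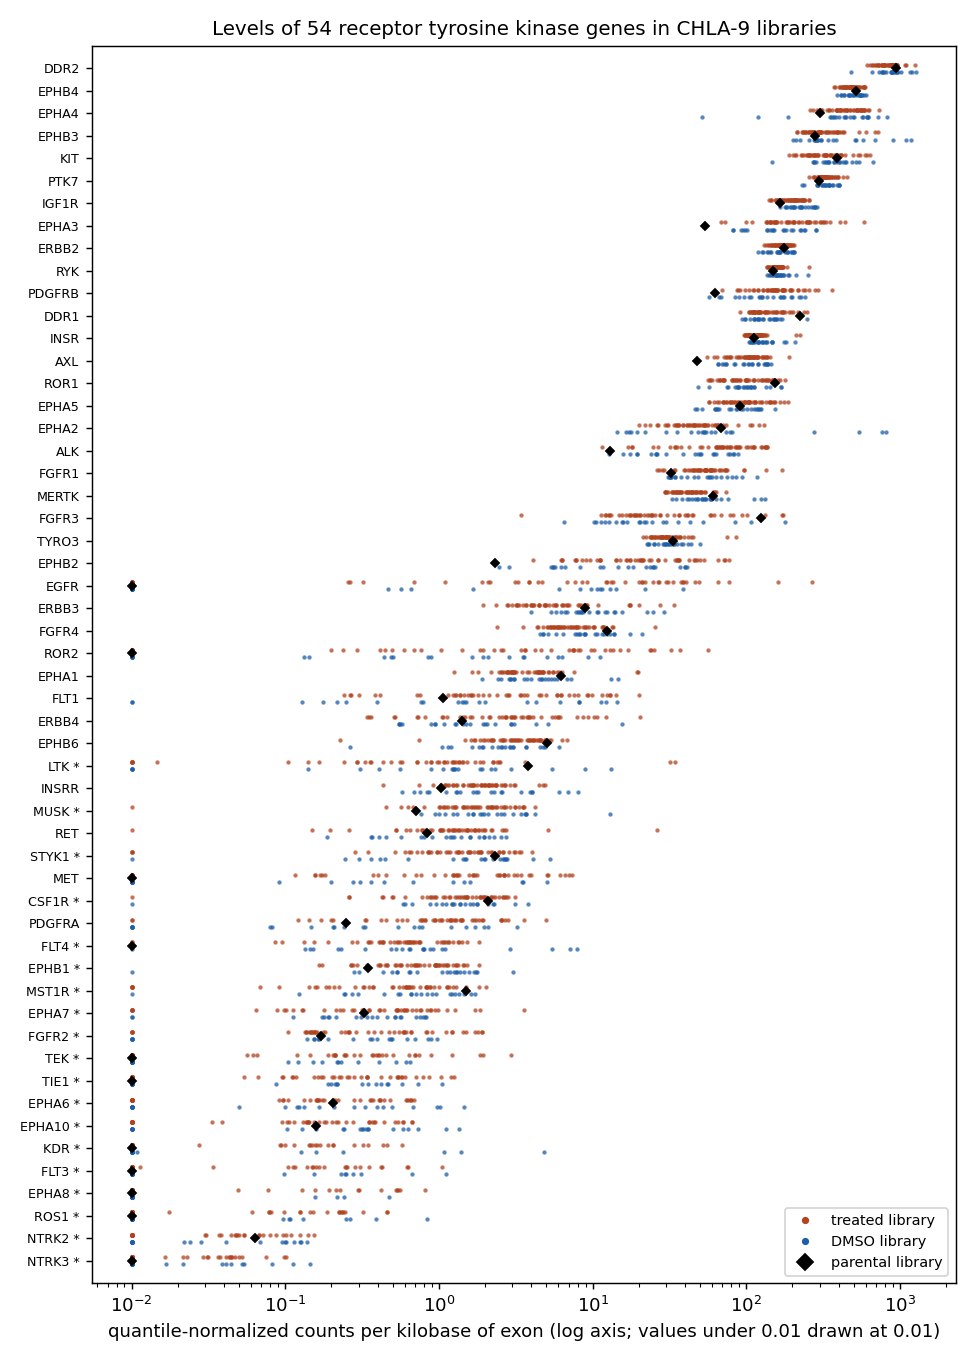
Levels of the 54 members, one row per gene, as quantile-normalized counts per kilobase of exon on a log axis; each point is a library (treated or DMSO) and the diamond is the parental library. Members marked with an asterisk had a mean under 10. DDR2, at a mean of 860.5 per kilobase, leads the list, while EGFR, ROR2 and MET spread over several decades and have their parental value at the left edge.

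The most abundant members were present at a high level in every library of both arms. DDR2 (ENSG00000162733.17, GRCh38 chromosome 1, 162631373 to 162787400, plus strand) had a parental value of 10066, a lowest, median and highest value of 6562, 9268 and 13392 in treated libraries, and 5194, 9539 and 13709 in DMSO libraries. EPHB4 (chromosome 7, 100802565 to 100827521, minus strand) read 3351 in the parental library, 2399, 3088 and 3794 in treated and 2499, 3218 and 3873 in DMSO libraries. The arms overlapped almost completely in both. PTK7 read 2687 in the parental line and spanned 2316 to 4076 in treated and 2095 to 3648 in DMSO libraries. ERBB2, the ErbB member that binds no ligand of its own, was as steady, with 1831 in the parental library, 1343, 1755 and 2124 in treated and 1237, 1696 and 2105 in DMSO libraries. KIT moved more, from 1063 to 3559 in treated libraries and from 818 to 3741 in DMSO libraries, around a parental value of 2166. INSR, the insulin receptor, read 1182 in the parental library and 1016, 1211 and 2355 in treated libraries, with 1090.2, 1321 and 2165 in DMSO libraries.

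Members of middle abundance had a wider range. PDGFRB read 449 in the parental library, 495, 1114 and 2574 in treated libraries and 411, 905 and 1713 in DMSO libraries, and its relative PDGFRA 2.42, 0.0159, 10.3 and 48.2, and 0.00349, 3.12 and 31.5. AXL, a receptor for GAS6, had its lowest value of all 73 libraries in the parental line at 247 and spanned 287 to 982 in treated and 338 to 751 in DMSO libraries. EPHA3 and EPHB2 likewise had their lowest value in the parental library, at 358 and 29.2. These 3 genes were already higher in the DMSO lineages at time point 1, where EPHA3 read 956 in R8, 914 in R9 and 918 in R10. With 1 parental library there is no replicate of the starting point and no test against it. ALK, a receptor of the nervous system, read 95.0 in the parental library and 85.0, 518 and 1006 in treated and 94.6, 344 and 648 in DMSO libraries. ROR1, a receptor for WNT5A, read 1027, 377, 665 and 1197, and 326, 667 and 1131 in the same order. FGFR3 was 606 in the parental library, 16.6, 117 and 841 in treated and 31.8, 98.2 and 864 in DMSO libraries. ERBB3 read 80.6, 17.5, 47.4 and 307, and 36.1, 78.5 and 264.

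The 19 members with a mean under 10 were CSF1R, FLT3, KDR, FLT4, FGFR2, NTRK2, NTRK3, MUSK, MST1R, TIE1, TEK, EPHA6, EPHA7, EPHA8, EPHA10, EPHB1, ROS1, LTK and STYK1, and 12 of them reached 10 in at least 1 library. Both neurotrophin receptors stayed low throughout: NTRK3 had a highest value of 3.85 and NTRK2 of 3.13. FLT3 stayed at or under 4.64, EPHA8 at or under 4.33 and ROS1 at or under 6.53. The VEGF receptor KDR was at or under 9.19 except for 31.8 in R8 at time point 10. The parental library listed 11 members at the lowest value, among them EGFR, ROR2 and MET, which were measurable in later libraries.

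These 3 genes are shown by their promoters, since they went from the lowest value to a measurable level. The 250 bases before each start come from RefSeq (GRCh38.p14). Capitals mark GGAA on either strand, the core bound by ETS factors such as FLI1; no promoter shown holds TGANTCA, the site of AP-1 factors, on either strand. EGFR lies at chr7:55018767-55019016 (plus strand), MET at chr7:116671946-116672195 (plus strand) and ROR2 at chr9:91950229-91950478 (minus strand), all outside the GENCODE v29 gene body.
EGFR: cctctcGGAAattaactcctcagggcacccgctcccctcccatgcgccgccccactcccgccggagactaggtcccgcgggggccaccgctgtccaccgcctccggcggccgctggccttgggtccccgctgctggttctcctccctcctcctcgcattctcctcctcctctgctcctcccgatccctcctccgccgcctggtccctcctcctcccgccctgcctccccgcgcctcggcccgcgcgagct
MET: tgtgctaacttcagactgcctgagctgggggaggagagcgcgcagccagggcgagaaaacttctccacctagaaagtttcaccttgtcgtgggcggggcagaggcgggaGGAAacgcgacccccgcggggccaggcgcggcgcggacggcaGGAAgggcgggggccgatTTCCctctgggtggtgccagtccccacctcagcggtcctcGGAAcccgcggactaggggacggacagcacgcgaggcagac
ROR2: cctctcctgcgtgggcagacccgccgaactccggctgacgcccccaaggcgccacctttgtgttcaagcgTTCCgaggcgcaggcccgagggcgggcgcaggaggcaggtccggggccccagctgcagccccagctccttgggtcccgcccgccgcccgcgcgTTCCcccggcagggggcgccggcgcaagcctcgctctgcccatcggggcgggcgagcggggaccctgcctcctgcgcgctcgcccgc

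All are rich in G and C, at 73.6% (EGFR), 68.4% (MET) and 78% (ROR2) against a median of 58% over 34943 promoter windows of this length. They hold 25, 24 and 32 CpG dinucleotides, against a median of 11. GGAA occurred 1 time in EGFR, 4 times in MET and 2 times in ROR2, and 92.7% of all windows hold it at least once. The repeat GGAAGGAA, counted among those matches, was in 0 of 80 windows of 48 members and in 3.06% of all windows. TGANTCA was in 6 of 80 member windows (7.5%) and in 6.59% of all windows. A second EGFR start inside the gene (chr7:55109589-55109838), whose window overlaps an annotated exon, has 2 TGANTCA and 5 GGAA matches. These are matches of letters and say nothing of binding.

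EGFR, the receptor for EGF and HBEGF (gene at chromosome 7, 55019021 to 55211628, plus strand, GRCh38), was listed at the lowest value in the parental library, in 5 of the 6 treated libraries of time point 1 (R4 read 8.58) and in the 3 DMSO lineages at time points 1 and 2. By time point 4 it read 23.8 in R1, 38.9 in R2, 26.1 in R3, 964 in R4, 48.6 in R5, 824 in R6 and 85.6 in R7. All 7 treated lineages had thus passed 10, although R1 went back to 3.20 at time point 5 and 4.02 at time point 6. The highest values were 3357 in R2 (time point 10) and 2003 in R1 (time point 9), the pair of libraries that lay closest to each other. The DMSO lineages went up too, at different times. R8 read 76.2 at time point 4 and 489 at time point 6, within the treated range. R10 was at the lowest value until time point 5 and read 134 at time point 8, and R9 first passed 10 at time point 9, with 20.8.

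Change over the cycles was measured in each lineage as the least squares slope of log2(value + 1) per time point, which understates the change of low genes. Each SE of a slope is limma's. It uses 1 spread pooled over both arms and moderated across genes, so it is not the spread of the n lineages alone. The EGFR slope was 0.82 ± 0.14 (SE, n = 7 lineages) in treated lineages (limma, Benjamini-Hochberg adjusted p = 0.00197), positive in all 7. In DMSO lineages it was 0.78 ± 0.21 (SE, n = 3 lineages; limma, Benjamini-Hochberg adjusted p = 0.0399), positive in all 3, and the difference of the slopes was 0.045 ± 0.26 (limma, Benjamini-Hochberg adjusted p = 0.967), a value whose sign changed under 6 of the alternatives. EGFR therefore rose in both arms, but both calls rest on choices. Without time point 1 the treated slope was 0.53 (limma, Benjamini-Hochberg adjusted p = 0.128), and with limma's variance trend set on the mean slope the adjusted p was 0.182. Leaving out any of the 3 DMSO lineages ended the DMSO call, with adjusted p between 0.0753 without R8 and 0.18 without R10.

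ROR2, a receptor for WNT5A, and MET, the receptor for hepatocyte growth factor, also started from the lowest value. ROR2 (chromosome 9, 91563091 to 91950162, minus strand) was at or under 2.41 in every library of time point 1 and peaked at 329 in R7 at time point 6 and 215 in R6 at time point 5. R1 stayed lowest of the treated lineages, with a highest value of 10.7. In DMSO lineages the highest values were 65.3 in R8, 9.55 in R9 and 34.6 in R10, so the arms overlapped. The slope of ROR2 was 0.48 ± 0.11 (SE, n = 7 lineages) in treated lineages (limma, Benjamini-Hochberg adjusted p = 0.00581) and 0.49 ± 0.16 (SE, n = 3 lineages) in DMSO lineages (limma, Benjamini-Hochberg adjusted p = 0.0652). Without time point 1 the treated slope of ROR2 was 0.23 (limma, Benjamini-Hochberg adjusted p = 0.312).

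MET (chromosome 7, 116672390 to 116798386, plus strand) was at or under 1.28 at time point 1. It first passed 10 at time point 4 in R4 to R7, at 6 in R3, at 8 in R2 and at 9 in R1, and its highest values were 51.7 in R6 at time point 4 and 49.4 in R7 at time point 8. Of the DMSO lineages, R8 reached 35.5, while R9 and R10 never exceeded 2.17 and 3.08. The MET slope was 0.43 ± 0.083 (SE, n = 7 lineages) in treated lineages, positive in 6 of 7 (limma, Benjamini-Hochberg adjusted p = 0.00336). The DMSO slope of 0.21 ± 0.13 (SE, n = 3 lineages) did not pass (limma, Benjamini-Hochberg adjusted p = 0.263), and the difference of the slopes did not either, at 0.22 ± 0.15 (limma, Benjamini-Hochberg adjusted p = 0.643). MET had a mean of at least 10 in treated libraries only (13.7, against 5.73 in DMSO libraries). It thus entered the test through the higher arm, and its slopes are given as descriptions.

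**Figure D2:**
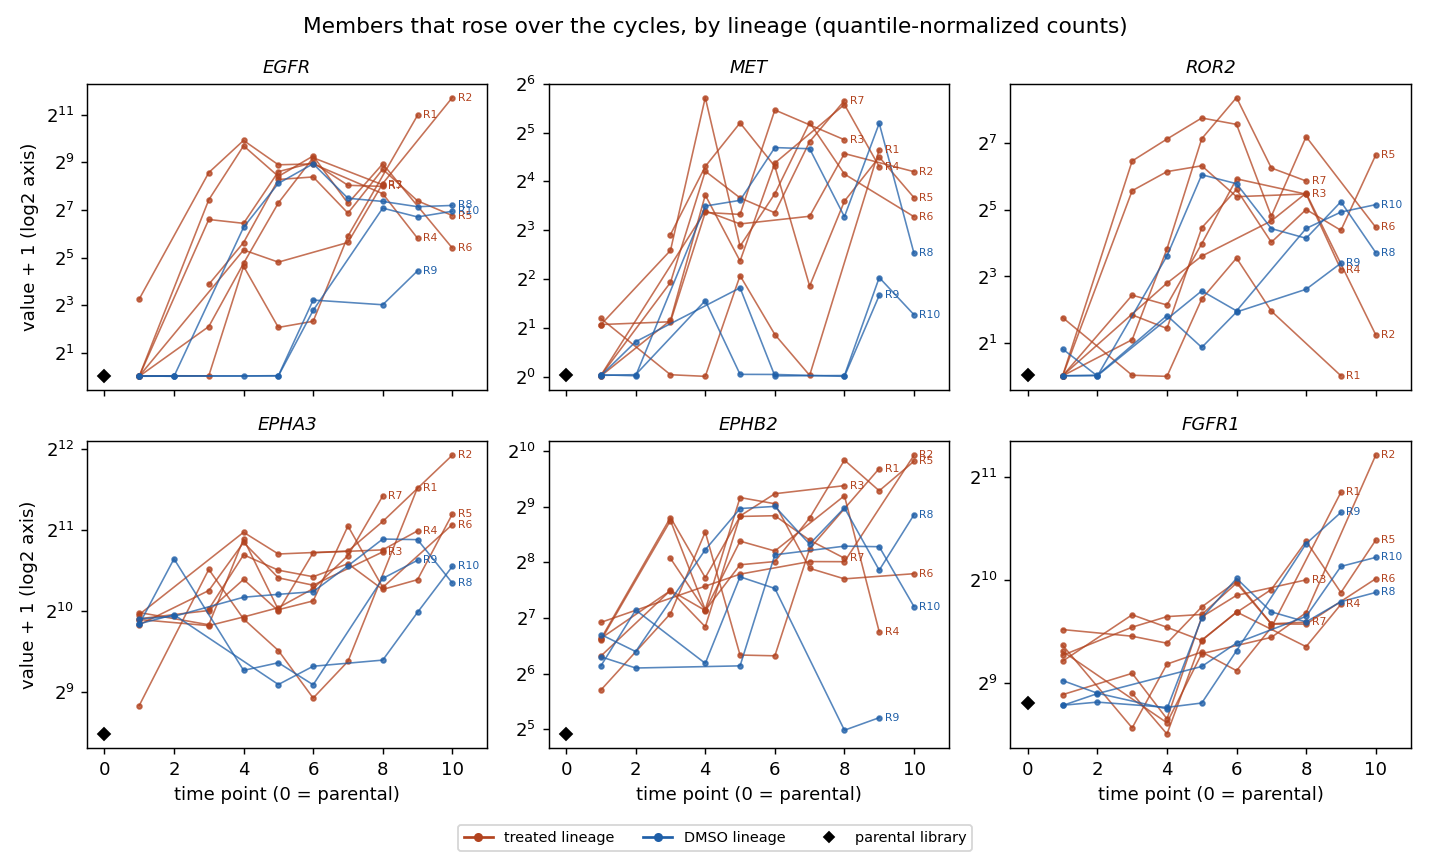
Quantile-normalized counts plus 1 on a log2 axis against time point for 6 members that rose in treated lineages; each line is a lineage, named at its last library, and the diamond at 0 is the parental library. EGFR, MET and ROR2 start at the lowest value in the parental library; DMSO lineage R8 runs with the treated lineages for EGFR and MET, below which R9 and R10 lie at most time points.

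In all, 11 of the 35 tested members (31.4%) passed the threshold for a treated slope, 9 rising and 2 falling, against 39.1% of the 14565 genes tested (16.3% rising and 22.8% falling). The share of members called was thus not above that of all genes. The rising members came from 6 families: 3 of 9 tested Eph receptors, 2 of 4 ErbB receptors, and FGFR1, FLT1, MET and ROR2. The median treated slope of the 35 members was 0.021 log2 units per time point, against -0.0076 over all genes. In the DMSO lineages 6 members passed (17.1%), 5 rising and 1 falling, against 12.3% of all genes (6.11% rising and 6.14% falling), with a member median of 0.032 against -0.0091. EGFR and FGFR1 passed in both arms, and 15 members in at least 1. The 20 tested members that passed in neither arm were ERBB2, ERBB3, INSR, INSRR, PDGFRA, PDGFRB, FGFR3, FGFR4, PTK7, ROR1, AXL, TYRO3, MERTK, EPHA1, EPHB6, RET, RYK, DDR1, DDR2 and ALK, among them all 3 TAM receptors and both discoidin domain receptors. Without time point 1, 4 members remained called in treated lineages (EPHA3, EPHB4, FGFR1 and MET) and 1183 genes. Among these members and the risers, MET was admitted by the filter through treated libraries only.

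EPHA3, a receptor for A-type ephrins (chromosome 3, 89107524 to 89482134, plus strand), had the smallest p-value among the treated slopes of the members. It read 456 in R1 and 911 to 1011 in 5 other treated libraries at time point 1, and the last library of each lineage read 2936 (R1), 3877 (R2), 1697 (R3), 2031 (R4), 2344 (R5), 2144 (R6) and 2737 (R7). Every treated lineage ended higher than it began. The slope was 0.14 ± 0.015 (SE, n = 7 lineages), positive in all 7 lineages (limma, Benjamini-Hochberg adjusted p = 0.000428). In DMSO lineages the last libraries read 1301, 1579.9 and 1499, each also higher than at time point 1. The DMSO slope was 0.058 ± 0.023 (SE, n = 3 lineages; limma, Benjamini-Hochberg adjusted p = 0.11), positive in all 3 lineages. Without the 4 late DMSO libraries that slope was -0.077, so its direction turned on them. The 2 slopes were not shown to differ, with a difference of 0.082 ± 0.028 (limma, Benjamini-Hochberg adjusted p = 0.493).

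EPHB2, a receptor for B-type ephrins, rose by 0.27 ± 0.053 (SE, n = 7 lineages) per time point, in all 7 treated lineages (limma, Benjamini-Hochberg adjusted p = 0.00369). Its treated libraries spanned 51.1 to 120.0 at time point 1, and the last ones read between 107 in R4 and 969 in R2. DMSO lineage R9 moved the other way, to 30.6 and 35.9 at time points 8 and 9, close to the parental 29.2, while R8 and R10 had positive slopes of 0.23 and 0.22. The DMSO slope of EPHB2 was 0.091 ± 0.081 (SE, n = 3 lineages; limma, Benjamini-Hochberg adjusted p = 0.439), and 0.26 without the 4 late libraries of R9 and R10, where it passed (limma, Benjamini-Hochberg adjusted p = 0.0241). FGFR1, a receptor for fibroblast growth factors, rose by 0.13 ± 0.027 (SE, n = 7 lineages) in treated (limma, Benjamini-Hochberg adjusted p = 0.00413) and by 0.17 ± 0.042 (SE, n = 3 lineages) in DMSO lineages (limma, Benjamini-Hochberg adjusted p = 0.0273). It read 446 in the parental library, and its highest values were 2378 in R2 (time point 10), 1852 in R1 (time point 9) and 1616 in DMSO R9 at time point 9. All 10 lineage slopes of FGFR1 were positive. The DMSO call was lost without R9 (slope 0.14) and without R10 (0.18). It was also lost without the 4 late DMSO libraries, at a slope of 0.10 (limma, Benjamini-Hochberg adjusted p = 0.0803).

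FLT1, the VEGF receptor also known as VEGFR1, rose by 0.32 ± 0.095 (SE, n = 7 lineages), in 6 of 7 treated lineages (limma, Benjamini-Hochberg adjusted p = 0.0219), and read 3.02, 35.4 and 252 as lowest, median and highest treated value. R5 went the other way with a slope of -0.26. The DMSO slope was positive in all 3 lineages, at 0.37 ± 0.14 (SE, n = 3 lineages; limma, Benjamini-Hochberg adjusted p = 0.1), and 0.59 without the 4 late DMSO libraries (adjusted p = 0.03, limma, Benjamini-Hochberg). ERBB4, the neuregulin receptor, rose by 0.25 ± 0.073 (SE, n = 7 lineages), in 5 of 7 lineages (limma, Benjamini-Hochberg adjusted p = 0.0209), from 4.42 to 13.8 at time point 1 to as much as 263 in R6 at time point 10. R1 and R2 ended low, at 6.70 and 4.60. EPHA5 rose by 0.075 ± 0.024 (SE, n = 7 lineages; limma, Benjamini-Hochberg adjusted p = 0.029). Its DMSO slope of 0.025 ± 0.036 became 0.14 without the 4 late libraries and passed (limma, Benjamini-Hochberg adjusted p = 0.0453). The calls of FLT1 and ERBB4 were lost without R3 or R7, that of FLT1 also without R4, and that of EPHA5 without R1, R2, R3 or R7. Summed fibroblast and muscle markers, PDGFRB among them, spanned 7288 to 52803 in treated and 5715 to 20091 in DMSO libraries, against 5424 in the parental library, and their part in these slopes was not tested.

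Of the members that fell, EPHB4 did so in all 7 treated lineages, by 0.047 ± 0.0067 (SE, n = 7 lineages) per time point on the log2 scale (limma, Benjamini-Hochberg adjusted p = 0.00105). Its treated libraries at time point 1 read 3382 to 3794, and the last ones 2399 in R4 to 3047 in R2. The 2 sets did not overlap, but EPHB4 was picked by its slope in the same values. The last libraries came from different time points, and 1 of the 7 lineages had no library at time point 1. How many of all genes had such a gap was not counted, and 22.8% of them fell in treated lineages (limma). The DMSO slope was -0.024 ± 0.010 (SE, n = 3 lineages; limma, Benjamini-Hochberg adjusted p = 0.132). Without the 4 late DMSO libraries it was -0.055 and passed (limma, Benjamini-Hochberg adjusted p = 0.0222). IGF1R, whose ligands are IGF1 and IGF2, fell by 0.047 ± 0.012 (SE, n = 7 lineages), again in all 7 (limma, Benjamini-Hochberg adjusted p = 0.0129). Treated libraries of time point 1 read 3001 to 3311 and the last ones 1961 in R7 to 3106 in R4. In DMSO lineages the last libraries read 3873, 2299 and 3071 and the slope was -0.050 ± 0.019 (SE, n = 3 lineages; limma, Benjamini-Hochberg adjusted p = 0.0918), or -0.059 and called without the 4 late DMSO libraries (adjusted p = 0.0443). The parental library was lower than any library of time point 1, at 2299.6. Without time point 1 the treated slope of IGF1R was -0.044 and not called (limma, Benjamini-Hochberg adjusted p = 0.128). MERTK and EPHA4 also had negative slopes in all 7 treated lineages, without passing the threshold.

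**Figure D3:**
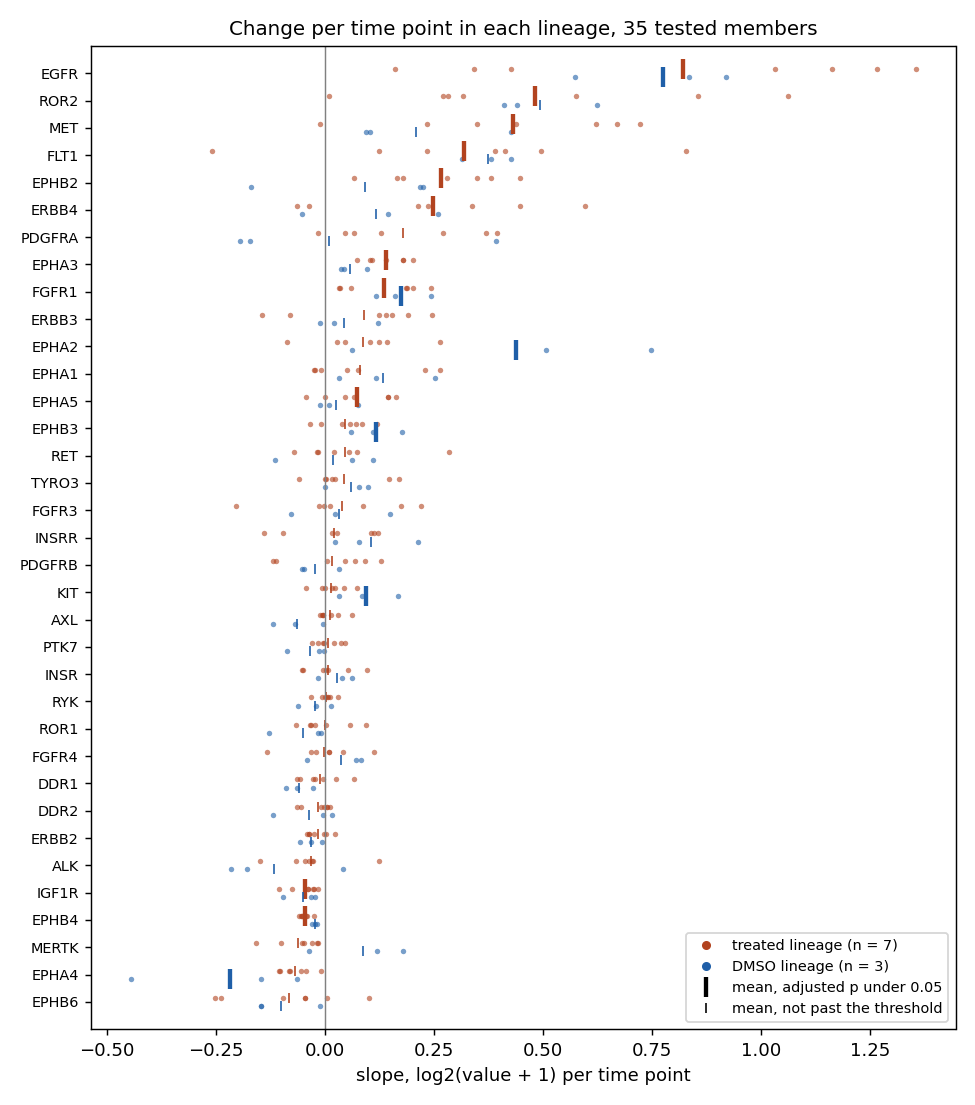
Slopes of log2(value + 1) per time point for the 35 tested members, sorted by the treated mean; points are the 7 treated and 3 DMSO lineages and vertical ticks are arm means, bold where the adjusted p was under 0.05. EGFR has the largest mean slope in both arms, and EPHA2 has the widest gap between a DMSO and a treated mean, carried by R9 and R10.

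Several Eph receptors moved in the late libraries of DMSO lineages R9 and R10, which had seen no drug. EPHA2, a receptor for ephrin-A1 (chromosome 1, 16124337 to 16156087, minus strand), read 285 in the parental library and no more than 541 in any treated library. It stood at 3186 and 3354 in R9 at time points 8 and 9, and at 1146 and 2238 in R10 at time points 9 and 10. R8 at the same time points 8 to 10 read 202, 338 and 124, so the third DMSO lineage did not share this. The DMSO slope was 0.44 ± 0.097 (SE, n = 3 lineages; limma, Benjamini-Hochberg adjusted p = 0.0218), with lineage slopes of 0.062, 0.75 and 0.51. These had an SD of 0.35, against 0.11 in treated lineages, so the pooled SE understates the DMSO spread. The call was lost without R9 (slope 0.29, limma, Benjamini-Hochberg adjusted p = 0.2) and without R10 (0.40, adjusted p = 0.13). Without the 4 late DMSO libraries the slope was 0.25 and still called (limma, Benjamini-Hochberg adjusted p = 0.0273).

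EPHA4, which binds both A-type and B-type ephrins, had its 3 lowest values in the same libraries, at 897 and 388 in R9 and 1416 in R10 at time point 10 (R10 at time point 9 still read 2764), against 4639, 4718 and 4589.8 in the DMSO libraries of time point 1. Its DMSO slope was -0.22 ± 0.052 (SE, n = 3 lineages; limma, Benjamini-Hochberg adjusted p = 0.026). The SD of the DMSO lineage slopes was 0.20, against 0.034 in treated lineages, so here too the pooled SE understates the DMSO spread. The EPHA4 slope was -0.11 without R9, no longer called, and -0.13 without the 4 late libraries, where the call held (limma, Benjamini-Hochberg adjusted p = 0.0154). EPHB3 read 1276 to 1323 at time point 1 in DMSO lineages and 4079.6, 4935 and 5374 in R9 at time points 8 and 9 and R10 at time point 10. R8 read 3099 at time point 9 and 1289 at time point 10. EPHB3 rose with a slope of 0.12 ± 0.028 (SE, n = 3 lineages; limma, Benjamini-Hochberg adjusted p = 0.0283). Without the 4 late DMSO libraries the EPHB3 slope turned negative, at -0.049. KIT rose by 0.095 ± 0.024 (SE, n = 3 lineages) in DMSO lineages (limma, Benjamini-Hochberg adjusted p = 0.0333), to 3005 in R9 and 2889 in R10 at their last time points from 1593 and 1503. Its highest value was 3741 in R10 at time point 5, and without the 4 late libraries the slope was 0.11 and still called (limma, Benjamini-Hochberg adjusted p = 0.0244). Without the 4 late libraries 10 members were called in DMSO lineages, and calls over all 14565 genes went from 1785 to 2769. None of the 6 DMSO calls remained without R9, without R10 or without time point 1 (0 members called in each case by limma). In these 3 settings 50, 37 and 9 of all genes were called.

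FLT4, the VEGF-C receptor, had a mean under 10 and was not tested. It read 25.6 and 70.5 in R9 at time points 8 and 9 and 48.4 and 63.4 in R10 at time points 9 and 10, and no more than 16.1 in a treated library. MUSK, the agrin-dependent receptor of the neuromuscular junction, read 55.0 in R9 at time point 8 and at most 18.0 in any other library. In treated lineages, RET, a receptor for GDNF family ligands, read 182 in R2 (time point 10) and 35.5 in R1 (time point 9) against at most 19.0 in DMSO libraries and 5.79 in the parental one. LTK, the relative of ALK, read 112 and 119.6 in the same libraries of R1 and R2, and 46.3 in DMSO R9 at time point 9. These 4 genes were thus high in 1 to 4 late libraries and low in the rest.

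**Figure D4:**
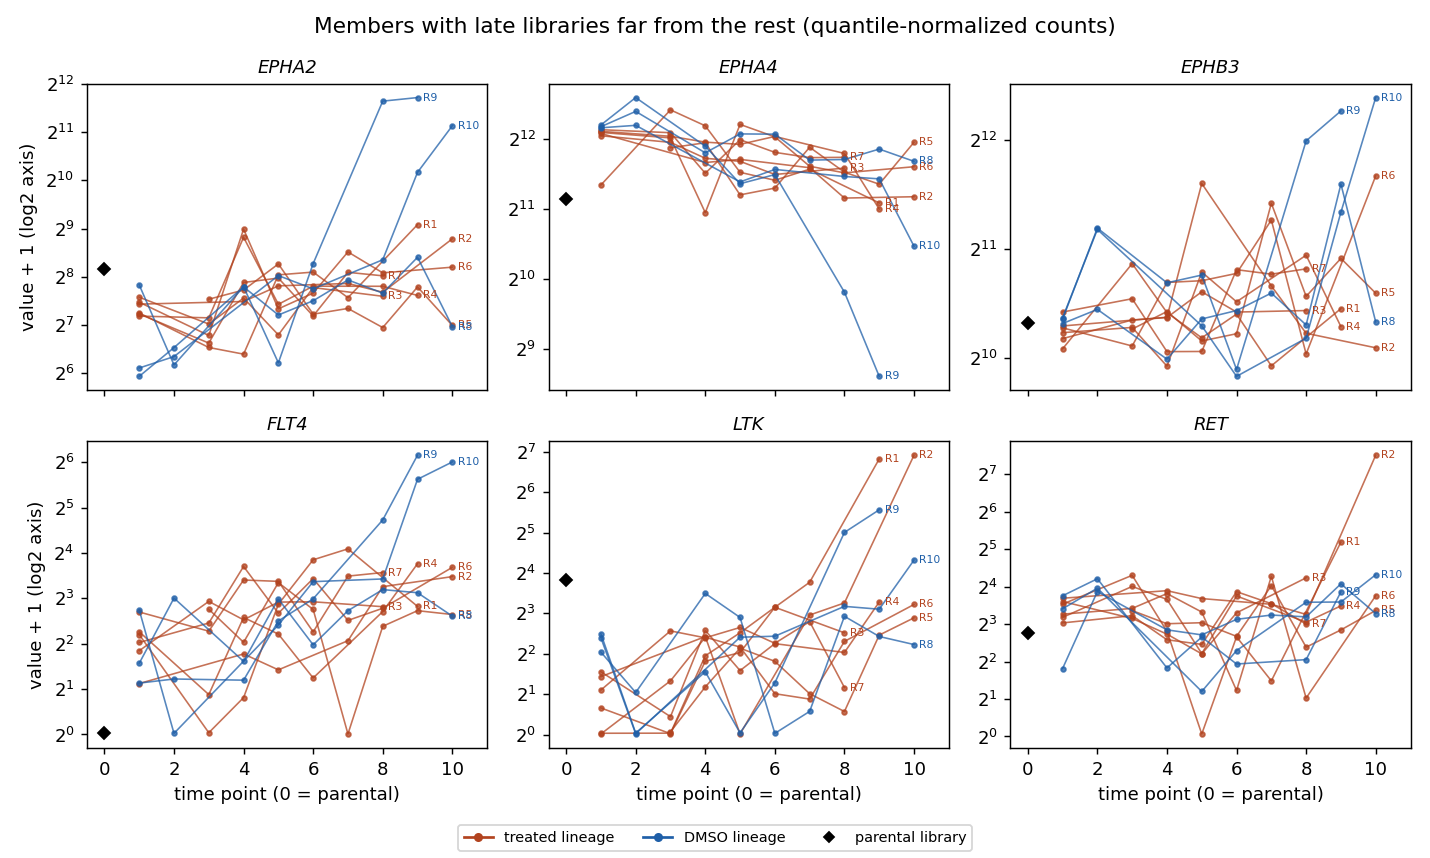
Quantile-normalized counts plus 1 on a log2 axis against time point for 6 members with late libraries far from the rest; each line is a lineage and the diamond at 0 is the parental library. EPHA2, EPHB3 and FLT4 are highest in DMSO lineages R9 and R10 and EPHA4 is lowest there, while LTK and RET are highest in treated R1 (time point 9) and R2 (time point 10).

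The difference between treated and DMSO slopes, which asks whether drug exposure changed the course over time, passed the threshold for 0 of the 35 members and 0 of 14565 genes (0% called; limma, Benjamini-Hochberg, smallest adjusted p over all genes 0.493). At an unadjusted p under 0.05 there were 6 members and 1373 genes (9.43%). Those members were MERTK (-0.15 ± 0.045), AXL (0.076 ± 0.025), EPHA2 (-0.35 ± 0.12), EPHA3, KIT (-0.080 ± 0.029) and EPHA4 (0.15 ± 0.062), each as treated minus DMSO per time point. EPHA2 and MERTK passed without R8, with differences of -0.54 and -0.21 (limma, Benjamini-Hochberg adjusted p = 0.0148 and 0.0303). Both also passed in one fit over libraries with lineage as a block, which treats time points of a lineage as independent. Among all 14565 genes, 212 passed without R8 and 321 in that block fit.

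Over all time points, treated and DMSO lineages were compared by 1 value per lineage adjusted for time point. No member passed (0 of 35), and 0 of 14565 genes did (0% called by limma); an unadjusted p under 0.05 was found for 10 members and 13.5% of all genes (1968). MERTK, a receptor of the TAM family, had the smallest adjusted p, with a difference of -0.48 ± 0.13 (SE, 7 against 3 lineages; limma, Benjamini-Hochberg adjusted p = 0.269). Its treated lineages lay between 7.48 and 7.98 on the log2 scale and the DMSO lineages at 7.74 (R8), 8.40 (R9) and 8.17 (R10), so only R1 reached into the DMSO range. For EGFR the difference was 2.41 ± 0.84 (limma, Benjamini-Hochberg adjusted p = 0.308) and for MET 1.70 ± 0.59. MET, PDGFRA and RET had a mean of at least 10 in treated libraries only (MET 13.7 against 5.73 in DMSO libraries), so they entered the test through the higher arm, and their differences between arms are given as descriptions. No member had its 7 treated values all below the 3 DMSO values (1.93% of all genes). FGFR1 was the only member whose 7 treated values, from 9.50 to 9.75, all lay above the 3 DMSO values, from 9.33 to 9.43; 1.08% of all genes were so ordered. Its difference was 0.19 ± 0.057 (limma, Benjamini-Hochberg adjusted p = 0.279). The difference of IGF1R was -0.17 ± 0.050 (limma, Benjamini-Hochberg adjusted p = 0.276).

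This comparison moved with single DMSO lineages. Without R9 the differences shrank, to 1.32 for EGFR, 0.26 for EPHB2, 1.16 for MET and -0.31 for EPHA2, and 0 genes passed (limma). Without R8, 1357 genes and 10 members passed: EGFR (3.67), MET (2.66), FLT1 (1.55), EPHB2 (1.22), EPHA3 (0.74), PDGFRB (0.48) and EPHA4 (0.43) higher in treated lineages, and EPHA2 (-0.76), MERTK (-0.69) and EPHB3 (-0.33) lower, all in log2 units. R8 lay within the range of the treated lineages for EGFR (5.69), MET (2.90), EPHB2 (8.14) and EPHA2 (7.43), where R9 and R10 did not: they read 1.81 and 3.38 for EGFR, 0.364 and 0.772 for MET, 6.56 and 7.17 for EPHB2, and 8.37 and 8.26 for EPHA2. With R8 left out, 2 DMSO lineages remain, whose late libraries lay closest to each other. The differences of DDR1 and EPHA2 changed sign without the 6 late libraries, to -0.024 and 0.16.

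**Figure D5:**
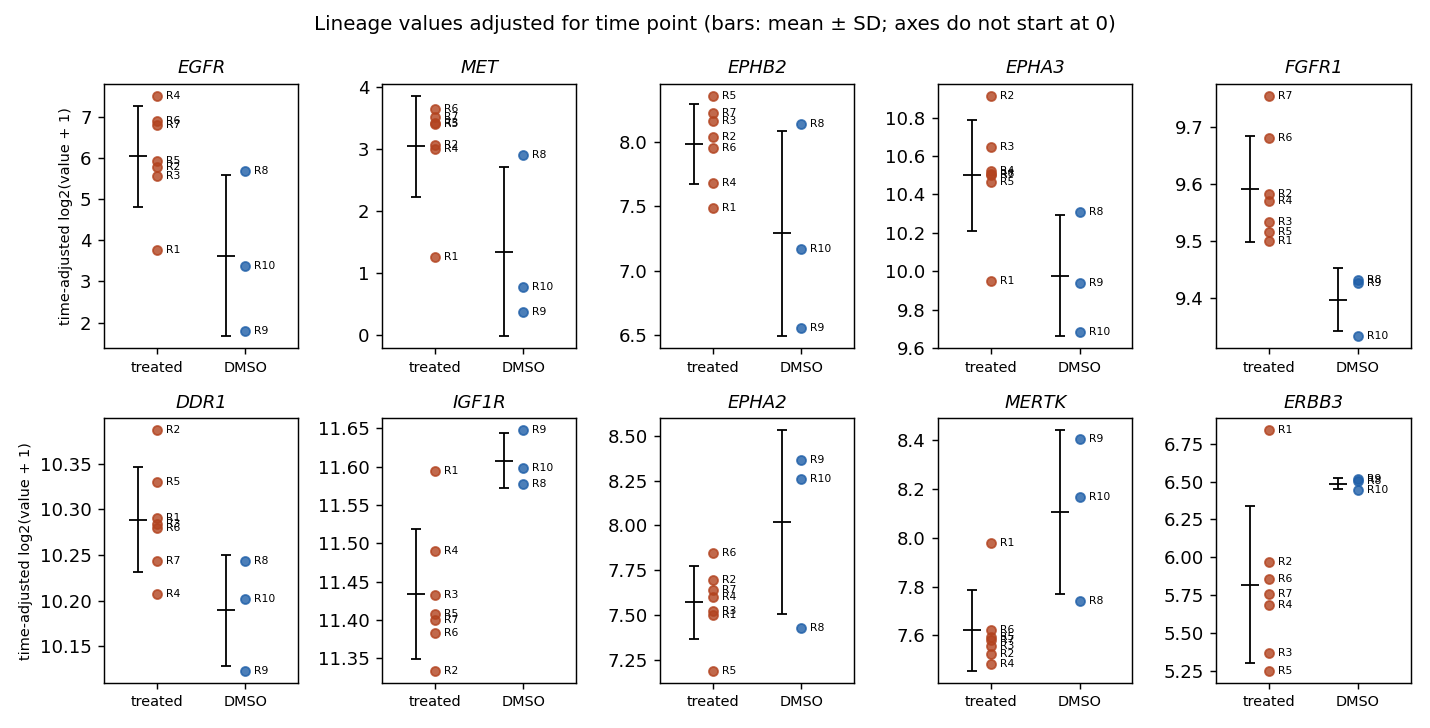
Time-adjusted log2(value + 1) of each lineage for the 10 members with an unadjusted p under 0.05 between arms; points are lineages, bars are mean ± SD (7 treated, 3 DMSO), and each panel has its own axis, which does not start at 0. FGFR1 is the only panel in which all treated lineages lie above all DMSO lineages; R8 lies with the treated lineages for EGFR, MET, EPHB2 and EPHA2, and R1 apart from the other treated lineages for MET and MERTK.

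At single time points, with 2 or 3 DMSO libraries each (time points 2, 3 and 7 lacked one arm or had 1 DMSO library), 0 of 245 tests of members passed at time points 1, 4, 5, 6, 8, 9 and 10 (limma), and 28 had an unadjusted p under 0.05. Each gene had 1 spread estimate shared by all time points of the 72 libraries. A p-value at a late time point thus does not measure the spread there. Among all genes, the share with an unadjusted p under 0.05 was 2.58% at time point 1, 3.09% at 4, 1.35% at 5, 3.9% at 6, 10.1% at 8, 14.9% at 9 and 11.8% at 10. After adjustment 194 genes passed at time point 9 (1.33%; 0.79% lower in treated lineages), 9 at time point 10 (0.0618%; 0.0343% higher) and 0 at the others (0%). The smallest adjusted p of a member was for MERTK at time point 9, with a treated minus DMSO difference of -0.92 ± 0.29 (limma, Benjamini-Hochberg adjusted p = 0.078). MERTK read 199, 201 and 145 in the treated lineages R1, R4 and R5 there, and 193, 583 and 356 in R8, R9 and R10. R8 lay among the treated values. At time point 8 the largest member difference was that of MET, at 3.63 ± 0.96 (a description, since MET entered through treated libraries), with treated values of 11.1 to 49.4 against 8.70 in R8 and the lowest value in R9 and R10. Without R8, 2705 of 101955 gene tests passed over the 7 time points, against 203 with it, and 11 tests of members did, at time points 8, 9 and 10, of EPHA2, MERTK, EPHB3, EPHB4, MET and PDGFRA, the last 2 admitted by the filter through treated libraries only.

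Within the treated lineages, libraries taken after EC were compared with those taken after VDC, with lineage as a block and a linear time term. Again 0 of 35 members and 0 of 14565 genes passed (0% called by limma; smallest adjusted p over all genes 0.0511), and an unadjusted p under 0.05 was found for 8 members and for 14.5% of all genes (2118). The largest differences among these were in FLT1 at 1.00 ± 0.42 (limma, Benjamini-Hochberg adjusted p = 0.25), FGFR3 at 0.76 ± 0.34 (limma, Benjamini-Hochberg adjusted p = 0.28) and ERBB4 at 0.72 ± 0.32 (limma, Benjamini-Hochberg adjusted p = 0.273), each as log2 EC minus VDC. The difference was -0.15 ± 0.056 for IGF1R (limma, Benjamini-Hochberg adjusted p = 0.197), -0.24 ± 0.10 for AXL and -0.16 ± 0.070 for INSR. At time point 4, after EC, FGFR3 read 99.0 to 638 in the 7 treated lineages, and 408 and 521 in DMSO R8 and R9, so DMSO libraries of that time point lay within the treated range.

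The genes around the receptors were followed as 4 lists. Of 44 tested ligand genes, 17 rose and 6 fell in treated lineages, and 9 rose and 3 fell in DMSO lineages (39.1% and 12.3% of all genes called). HBEGF, which binds EGFR and ERBB4, had the largest treated slope among ligands at 0.47 ± 0.15 (SE, n = 7 lineages; limma, Benjamini-Hochberg adjusted p = 0.0316). HGF, the ligand of MET, is counted among the risers but reached 10 in 5 libraries and passed the filter only through 2 treated ones (mean 11.8, and 2.21 without the 6 late libraries), so its slope is not given as a result. HBEGF read 3664 in R1 (time point 9) and 3722 in R2 (time point 10), at most 184 in the other treated libraries, and 680.0 in DMSO R9 at time point 9. HGF stood at 319.5 and 394 in the same R1 and R2 libraries and at or under 20.5 in every other. EGFR, RET and LTK thus had their 2 highest values in the 2 libraries in which HBEGF and HGF did. The HBEGF call was lost without R1, R2, R3, R4 or R7. PDGFA, a ligand of PDGFRA, is counted among the risers of both arms but passed the filter only through late libraries. Its mean was 8.92 without the 6 late libraries, so its slopes are not given as results. COL1A1, a collagen that binds DDR1 and DDR2, rose by 0.39 ± 0.057 (SE, n = 7 lineages; limma, Benjamini-Hochberg adjusted p = 0.00114). With PDGFA and FGF14 set aside, the largest DMSO slopes were those of GDNF, whose receptor is RET, at 0.69 ± 0.095 (SE, n = 3 lineages; limma, Benjamini-Hochberg adjusted p = 0.00506), and of the IGF1R ligand IGF2 at 0.41 ± 0.096. Both calls were lost without R9 and without R10. Without the 4 late DMSO libraries the slopes were 0.28 for GDNF, still called (limma, Benjamini-Hochberg adjusted p = 0.0384), and 0.035 for IGF2, not called. FGF14 is counted among the DMSO risers but passed the filter only through late DMSO libraries (mean 5.33 without the 6 late libraries), so its slope is not given as a result.

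Of 25 adaptors and effectors, 7 rose and 2 fell in treated and 3 rose in DMSO lineages, shares close to those of all genes (39.1% and 12.3%). GAB2, a docking protein, rose by 0.23 ± 0.044 (SE, n = 7 lineages) in treated lineages (limma, Benjamini-Hochberg adjusted p = 0.00301), with smaller slopes for GRB10 (0.21 ± 0.074), DOK1 (0.088 ± 0.026) and NCK2 (0.058 ± 0.016). GRB10, an adaptor of the insulin receptors, rose by 0.50 ± 0.11 (SE, n = 3 lineages) in DMSO lineages (limma, Benjamini-Hochberg adjusted p = 0.0228), where DOK1 (0.15 ± 0.039) and SHC1 (0.091 ± 0.024) also rose. Of 22 negative regulators, 6 rose and 1 fell in treated lineages and 5 rose and 1 fell in DMSO lineages, again beside 39.1% and 12.3% of all genes. SPRY1 had the largest treated slope of that list at 0.37 ± 0.075 (SE, n = 7 lineages, limma, Benjamini-Hochberg adjusted p = 0.004). SPRY1 had a mean of at least 10 in treated libraries only (14.2, against 6.74 in DMSO libraries). It thus entered the test through the higher arm, and its slope is given as a description. Next came SPRY2 (0.28 ± 0.10), SOCS3 (0.26 ± 0.075) and ERRFI1 (0.15 ± 0.043), which binds and inhibits EGFR. SPRY2 had the largest DMSO slope at 0.60 ± 0.15 (SE, n = 3 lineages; limma, Benjamini-Hochberg adjusted p = 0.0333), before SPRY4 (0.43 ± 0.092), SPRED3 (0.19 ± 0.055) and SH2B3 (0.16 ± 0.046). The DMSO calls of GRB10, DOK1, SHC1, SPRY2, SPRY4, SPRED3 and SH2B3 were lost without R9 and without R10. Without the 4 late DMSO libraries the slopes were 0.25 for GRB10, 0.34 for SPRY2, 0.13 for SPRY4, 0.046 for SPRED3 and 0.065 for SHC1, none called. DOK1 (0.18) and SH2B3 (0.094) stayed called there. In treated lineages the calls of GRB10 and SPRY2 were lost without R1, R2 or R3 (GRB10 also without R5, SPRY2 also without R4, R6 or R7), that of DOK1 without R1, R2 or R7, that of SOCS3 without R3 and that of ERRFI1 without R2. Without the late treated libraries R1 (time point 9) and R2 (time point 10), the treated slope was 0.099 for GRB10 and 0.15 for SPRY2, both not called.

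Of 16 genes known as ERK output, 2 of them members (EPHA2, EPHA4) and 4 also negative regulators, 7 rose and 1 fell in treated lineages, and 9 rose and 1 fell in DMSO lineages (39.1% and 12.3% of all genes called). The largest treated slopes were those of the phosphatase gene DUSP5 at 0.40 ± 0.11 (SE, n = 7 lineages; limma, Benjamini-Hochberg adjusted p = 0.0169), lost without R3, of IER3 at 0.35 ± 0.060 and of EGR1 at 0.28 ± 0.072. ETV4, an ETS factor induced by ERK, is counted among the DMSO risers but passed the filter only through 4 late DMSO libraries (mean 5.65 without the 6 late libraries), so its slope is not given as a result. It read 1215 and 1539 in R9 and 367 and 824 in R10 in the late libraries with high EPHA2, against at most 30.7 in treated libraries. FOSL1, an AP-1 subunit, rose by 0.54 ± 0.15 in DMSO lineages, a call lost without R9, without R10 and without the 4 late libraries (slope 0.18). DUSP6, the ERK phosphatase, read 4384, 5982, 1598 and 3703 in those 4 libraries, and its largest treated value was 1901. SPRY4, which limits RAS signalling, read 1515, 1418, 473 and 814 there and at most 202 in treated libraries. The 4 DMSO libraries with the highest EPHA2 were thus also those in which ETV4, DUSP6 and SPRY4 stood above every treated library, except DUSP6 in R10 at time point 9.

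No list gene was called between arms, between slopes or between courses: 0 genes of the 4 lists passed (limma). The smallest adjusted p values between arms (limma, Benjamini-Hochberg) were 0.255 for KITLG, the ligand of KIT (0.88 ± 0.20), SOCS2 (-0.32 ± 0.072) and DUSP4 (-0.72 ± 0.16), and higher for SPRED2, CRK and FRS3. FGF5 had as small a p but reached 10 in 3 libraries, all treated, and entered the test through them. Between courses they were 0.0695 for SOS2 (0.19 ± 0.046) and 0.0727 for PTPRF (-0.24 ± 0.060). At single time points, with the spread shared over all time points, the ERK target ETV5 was lower in treated lineages at time point 9 (-2.65 ± 0.57; limma, Benjamini-Hochberg adjusted p = 0.0125), a call lost without R1 or R9. SH2B3, a negative regulator of KIT and other receptors, was lower there too (-1.15 ± 0.31; limma, Benjamini-Hochberg adjusted p = 0.0466), and its call was lost without R1, R3, R4, R6, R7 or R9. The ligand PTN was higher in treated lineages at time point 10 (2.80 ± 0.59; limma, Benjamini-Hochberg adjusted p = 0.0398), which did not remain without R2, R3, R7 or R10.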

How the data were processed

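RNA of CHLA-9 cultures was extracted with a Qiagen AllPrep kit, per the labels' protocols, and the submitters' processing notes name STAR, featureCounts and GRCh38, without versions. The authors deposited 1 signal per gene and library, a quantile-normalized count; how the authors normalized is not given in the sources used here. Treated columns share one distribution of values, and DMSO and parental columns another. Depth is unknown, so no counting interval is given. Lineages are separate replicates of 1 line by the labels, and time points within a lineage are repeated samples of it.

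Values were analysed as log2(value + 1) for the 14565 of 36233 genes with a mean of at least 10, with limma 3.58.1 (trend, Benjamini-Hochberg over all genes tested, threshold 0.05) in R 4.3.3 with the data.table package, version 1.17.8. Time-adjusted lineage values, single time points in a shared fit of 72 libraries, lineage slopes, and the course given last (EC or VDC) were compared, the courses with lineage as a replicate block. Arms share no lineage number, so lineages were not paired across arms. In slopes, limma's variance trend followed the mean log2 value. Each SE is limma's moderated value, with the spread pooled over all groups of the fit. Exon lengths and gene positions came from GENCODE v29, promoters from RefSeq, and figures from matplotlib 3.10.9 in Python 3.11.15.

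Members and lists were chosen with earlier results of these data known. Values are given for members past the threshold, the 6 with the highest level per kilobase, those whose highest library was at least 16 times the median, and a set of well-known receptors; from each other list, up to 4 of the largest past the threshold, or else the smallest p-values. MUSK, KDR, FLT4, DUSP6 and SPRY4 were named after their values were seen. Alternatives were another pseudocount, filter, scaling, block or variance trend, and leaving out lineages, time point 1 or libraries.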

Additional observations from a re-analysis of the deposited data

Results flagged for a closer look

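Among 70 sets of 7 treated lineage values (time-adjusted values and slopes of 35 members), 6 held a lineage far from the other 6 by Dixon's test at 95%; chance gives about 1 in 20. Lineage R1 stood apart for 4 genes. Its time-adjusted log2 value was 1.40 for PDGFRA (others 2.92 to 3.85), 1.26 for MET (others 3.00 to 3.64), 7.49 for ALK (others 8.74 to 9.46) and 7.98 for MERTK (others 7.48 to 7.62). R2 stood apart for RET, with a value of 4.47 (others 3.06 to 3.62) and a slope of 0.28 per time point (others -0.071 to 0.074); both rest on 182 at time point 10.

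Of the members under the filter of a mean of 10, 3 had a treated library far above every DMSO and parental library. LTK read 119.6 in R2 at time point 10, where the highest control library read 46.3. EPHA7 read 26.7 in R4 at time point 8 (controls at most 6.14), and TEK, the angiopoietin receptor, 14.1 in R6 at time point 4 (controls at most 3.12).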

How the results depend on the processing

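Of 1748 alternative values for 105 single gene results, 1481 kept their direction and side of the threshold, 211 lost the call, 41 gained one and 15 changed sign. For DMSO slopes, against 1785 genes and 6 members, 427 and 0 passed without a filter, 9 and 0 without time point 1, 2769 and 10 without the 4 late libraries of R9 and R10, and 5808 and 17 in one fit over libraries with lineage as a replicate block. That block fit, which treats time points as independent, also gave 321 genes and 2 members for the slope difference, where no filter gave 1 gene. Treated slopes fell from 5693 genes and 11 members to 1183 and 4 without time point 1. Between arms, a pseudocount of 10 gave 1 gene. At single time points 203 gene tests that passed became 792 without a filter. Between courses, 3 genes passed at a mean of at least 50 and 41 with no replicate block. Of alternatives chosen after seeing the data, leaving out 3 early libraries (R1 at time point 3, R8 at time points 1 and 2) gave 437 genes and 2 members for DMSO slopes and 11 genes between courses. Leaving out the 6 late libraries gave 3320 and 11 for DMSO slopes, 50 genes between courses and 1 gene test at single time points. The cause was not tested.

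With each lineage left out in turn, the calls ranged over 0 to 1357 genes and 0 to 10 members between arms, 3974 to 6508 and 8 to 12 for treated slopes, 37 to 2818 and 0 to 7 for DMSO slopes, 0 to 212 and 0 to 2 for their difference, and 0 to 164 and 0 between courses. At single time points, counted as tests over the 7 time points, 62 to 2705 gene tests and 0 to 11 member tests passed. Without the 6 late libraries the arm difference of DDR1 was -0.024 and that of EPHA2 0.16. Without the 4 or the 6 late libraries the DMSO slope was -0.077 for EPHA3 and -0.049 for EPHB3. For EPHA5 it was -0.027 without time point 1, -0.0014 without R10 and -0.012 without the 3 early libraries (up to 0.042 with a lineage left out), but 0.14 without the 4 or the 6 late libraries. The slope difference of EGFR was -0.024 in the block fit, -0.26 without time point 1, and -0.029, -0.012, -0.044 and -0.057 without R1, R2, R3 and R9, and up to 0.15 without R4. Requantiling all columns together moved the median of all genes between arms from 0.00015 to -0.00074 on the log2 scale. The arms share no lineage number, so no paired analysis between arms was possible. Depth is unknown, so counting error could not be set against these differences.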

Other observations

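The highest values of the receptors were gathered in few libraries. Of the 35 tested members, 16 (45.7%) had their highest value in one of 6 late libraries, against 26.3% of all 14565 genes tested. Of these, 12 were highest in R1 at time point 9 or R2 at time point 10 (34.3% of members, against 10.4% of all genes). In a late library of DMSO lineages R9 or R10, 4 were highest (11.4% of members, against 15.9% of all genes). The lowest value lay in one of the 6 libraries for 8 members (22.9%) and 36.2% of all genes. The 6 libraries were singled out after their values were seen, and no test was made.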
